A study of Homo sapiens with 6 samples.

Results

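The genes described here are CD38, its chromosomal neighbor BST1 and 8 genes of NAD metabolism, NAMPT, NMNAT1, NMNAT3, NAPRT1, NADSYN1, NADK, SIRT1 and PARP1. CD38 was chosen by its higher level in CTCF-dRBR cells in the total RNA-seq data shown here, so its difference between the groups is given as a description without a test. The other members were picked by function or by position, with earlier results of these data known. They are 10 of 57820 genes quantified, and 8 of them had a CPM (counts scaled to the library size) of 1 or more in some library and were among the 14044 genes tested. The cells were SEM, an established B-cell acute lymphoblastic leukemia (B-ALL) line, and the question was whether removing the RNA-binding region (RBR) of the DNA-binding factor CTCF changes transcription. In all 6 libraries the endogenous CTCF carried a miniAID-mClover3 degron tag, and the methods state that the cells constitutively express OsTIR1(F74G), the adaptor that marks the tagged protein for degradation once 5-Ph-IAA is added. CTCF-dRBR cells (n = 3) carried TRE3G-HA-CTCF-dRBR, a doxycycline-inducible CTCF without the RBR. For CTCF-WT cells (n = 3) the labels name only the tagged endogenous gene, while the methods give them a doxycycline-inducible HA-tagged wild-type CTCF. Both groups received 5-Ph-IAA for 6 h and then 5-Ph-IAA with doxycycline (1 µg/mL) for a further 18 h. The sources used here do not say whether the replicates were separate cultures, so the p-values measure only the spread between these libraries, which may be technical. Each group is a single engineered line, so a difference between the lines cannot be told apart from a difference between the CTCF proteins.

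NAD is a redox carrier and also a substrate that several enzymes consume. It is made from nicotinamide by NAMPT and the NMNAT enzymes, from nicotinic acid by NAPRT1 and NADSYN1, and from tryptophan by way of QPRT, and NADK phosphorylates it to NADP. CD38 and BST1 (CD157) are surface glycohydrolases that split NAD into nicotinamide and ADP-ribose and make cyclic ADP-ribose, a calcium-mobilizing messenger, while sirtuins and PARP enzymes consume NAD inside the cell. CD38 is a common surface marker of B-cell precursors, B-ALL blasts and plasma cells.

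CD38 lies on chromosome 4 (GRCh37, chr4:15779898-15854855, plus strand), and BST1 lies upstream of it on the same strand (chr4:15704688-15739936). The gap between the genes is 40 kb. The promoters of CD38, SIRT1 and NAMPT are shown because they hold the fewest and the most CpG dinucleotides among the members. Each runs from 250 bases before the annotated start to 50 bases after it, 5′ to 3′ on the strand of the gene, with the CpG dinucleotides in capitals. The sequences are from RefSeq on GRCh38.p14 (chr4:15778078-15778377 for CD38, chr10:67884406-67884705 for SIRT1 and chr7:106284934-106285233, minus strand, for NAMPT).
CD38: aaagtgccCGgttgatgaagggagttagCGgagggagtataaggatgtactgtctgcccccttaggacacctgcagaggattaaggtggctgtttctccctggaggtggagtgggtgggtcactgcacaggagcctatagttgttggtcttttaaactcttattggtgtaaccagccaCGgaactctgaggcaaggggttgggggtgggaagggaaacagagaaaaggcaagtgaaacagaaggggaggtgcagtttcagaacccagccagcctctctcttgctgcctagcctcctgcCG
SIRT1: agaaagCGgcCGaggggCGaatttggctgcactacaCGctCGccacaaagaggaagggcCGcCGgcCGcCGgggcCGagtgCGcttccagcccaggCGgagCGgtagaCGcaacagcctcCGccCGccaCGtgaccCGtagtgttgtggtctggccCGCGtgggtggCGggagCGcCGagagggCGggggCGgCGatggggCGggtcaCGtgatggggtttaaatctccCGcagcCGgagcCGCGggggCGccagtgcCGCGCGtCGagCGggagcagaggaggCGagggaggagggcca
NAMPT: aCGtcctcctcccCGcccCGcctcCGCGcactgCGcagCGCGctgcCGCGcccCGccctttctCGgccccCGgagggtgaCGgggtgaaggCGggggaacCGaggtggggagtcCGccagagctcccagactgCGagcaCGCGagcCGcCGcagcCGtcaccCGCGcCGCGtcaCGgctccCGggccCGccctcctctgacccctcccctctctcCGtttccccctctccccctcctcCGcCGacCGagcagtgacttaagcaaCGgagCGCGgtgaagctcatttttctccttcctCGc
The CD38 promoter held 4 CpG dinucleotides in 300 bases at a GC content of 54.0%. SIRT1 held 39 and NAMPT 38. Promoters were found for 8 of the 10 members. BST1 and NAPRT1 had no entry in the table used. The other 7 held between 6 (NADK) and 39. Among 35116 promoters of the same length the median was 14, and 29.6% held 4 or fewer. Of 60 genes of the NAD lists with a promoter, including CD38, the median was 23, and 7 others held no more than CD38. The letters CCCTC occurred once on either strand of the CD38 promoter. Of all promoters, 71.2% had at least 1 match.

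Total counts per library ranged from 51732177 to 53166735 in CTCF-WT and from 30034505 to 50457168 in CTCF-dRBR, where the lowest was replicate 1. A count of 0 allows up to 0.0566 to 0.10 CPM, depending on the library. This limit and all intervals given for counts cover counting error only. CTCF-dRBR replicate 1 stood apart from the others. Its Spearman correlation with them over the genes tested was at most 0.968, against 0.992 or more at best for every other library. Its deviation from the mean of the 6 libraries followed the GC content of the genes (Spearman rho −0.78), and rho was between −0.417 and 0.709 in the other libraries. For the members, NAD genes and neighbors of CD38 whose fold change is given below, values that changed direction or moved by more than 1.5 times without this library or with the GC trend removed are given beside the main value. CTCF counts, which do not separate endogenous from induced transcripts, were 209.9, 211.2 and 248.6 CPM in CTCF-WT and 272.8, 263.7 and 252.1 CPM in CTCF-dRBR (log2 fold change 0.24, adjusted p = 0.20 by limma-voom), and gene counts do not show the deleted region. All 10 B lineage markers reached 1 CPM in some library, although BLNK lay at only 0.530 to 0.755 CPM in CTCF-WT. The summed level of the 10 was 925 to 1120 CPM in CTCF-WT and 631 to 1093 CPM in CTCF-dRBR. Of the 5 plasma cell markers, only IRF4 reached 1 CPM, and the sum was 128 to 142 CPM in CTCF-WT and 131 to 147 CPM in CTCF-dRBR. In CTCF-WT the T and NK cell markers summed to 15.1 to 23.3 CPM (1 of 7 tested, CD3D at 0) and the myeloid markers to 14.5 to 18.2 CPM (3 of 6 tested). In CTCF-dRBR these sums were 9.73 to 15.8 and 13.2 to 20.3 CPM. No erythroid marker reached 1 CPM, with HBA1, HBA2 and ALAS2 at 0 in all libraries. In bulk RNA, more cells expressing a gene and more RNA per cell cannot be told apart.

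The level of CD38 was 15.8, 15.5 and 15.8 CPM in the 3 CTCF-WT libraries and 31.3, 32.2 and 28.5 CPM in the 3 CTCF-dRBR libraries. The groups did not overlap, which held in this direction for 20.0% of all genes tested. The lowest CTCF-dRBR library lay well above the highest CTCF-WT library. The means were 15.7 ± 0.190 CPM and 30.7 ± 1.92 CPM (SD, n = 3), a ratio of 1.95. The underlying counts were 774, 794 and 838 in CTCF-WT and 937, 1659 and 1468 in CTCF-dRBR, so that no library had fewer than 774 reads of CD38. The log2 fold change of CTCF-dRBR against CTCF-WT was 0.96 (SE 0.11) by limma-voom. A larger positive value was found for 348 of the 14044 genes tested, and the median absolute log2 fold change of all genes was 0.33. The alternative analyses reuse the libraries that chose CD38. It stayed higher in CTCF-dRBR in all 19 of them, with a log2 fold change between 0.76 and 1.28. It was 0.94 without CTCF-dRBR replicate 1 and 0.76 after the GC trend was removed. The GC content of its exons was 42.6%. In TPM, which are scaled to gene length, CD38 was 1.79, 2.38 and 3.95 in CTCF-WT and 6.53, 7.91 and 5.04 in CTCF-dRBR, again without overlap. TPM were higher in CTCF-dRBR for genes in general. Protein-coding genes held 30.3% to 52.4% of the TPM in CTCF-WT and 43.5% to 63.2% in CTCF-dRBR. On log2(TPM + 1) the difference of CD38 was 1.04, with a median of 0.40 over all genes tested. After rescaling the TPM to protein-coding genes it was 0.76, with a median of 0.09.

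**Figure D1:**
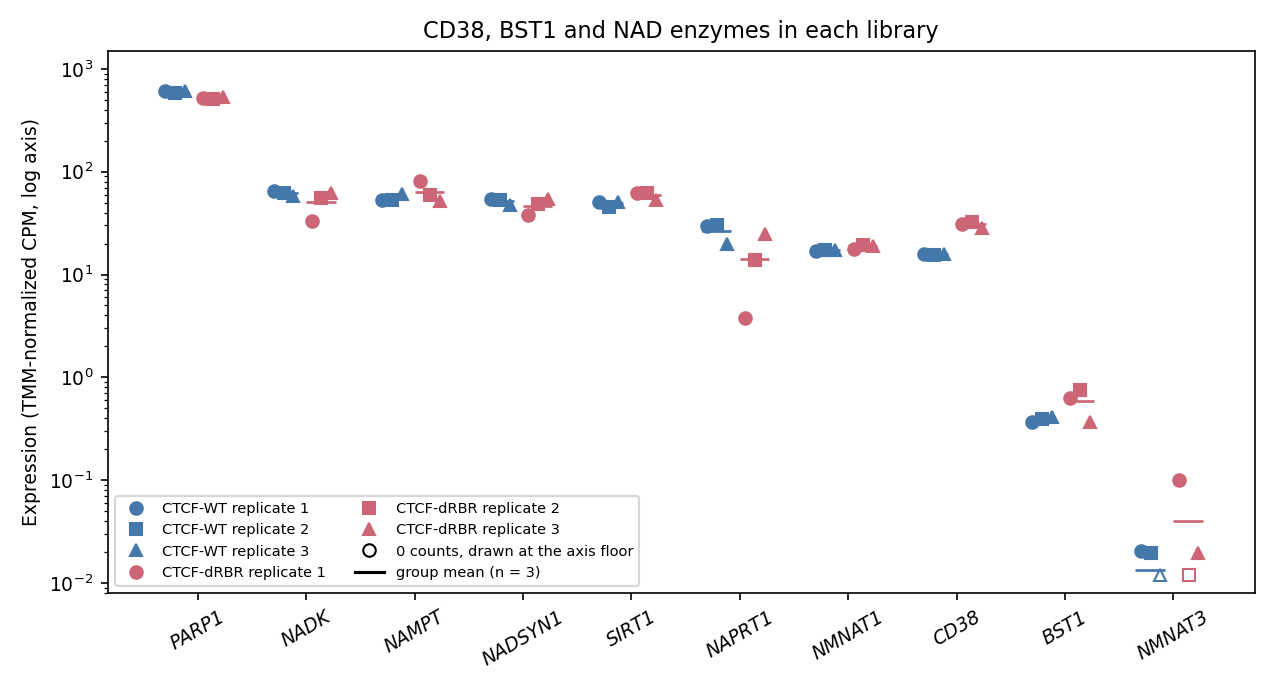
Expression of the 10 members in each library, as TMM-normalized CPM on a log axis, with circles, squares and triangles for replicates 1, 2 and 3, horizontal bars for the group means (n = 3) and open symbols for a count of 0, drawn at the axis floor. CD38 separates the groups (15.5 to 15.8 against 28.5 to 32.2 CPM), NAPRT1, NADK and NAMPT show CTCF-dRBR replicate 1 apart from the rest, and BST1 and NMNAT3 lie below 1 CPM.

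BST1, the paralog of CD38 next to it, was barely expressed. Its counts were 18, 20 and 22 in CTCF-WT and 19, 39 and 19 in CTCF-dRBR. These are 0.367, 0.390 and 0.415 CPM in CTCF-WT and 0.635, 0.756 and 0.369 CPM in CTCF-dRBR. The groups overlapped, since CTCF-dRBR replicate 3 lay within the range of CTCF-WT while the other CTCF-dRBR libraries lay above it. The exact Poisson 95% interval was 0.538 to 1.03 CPM for the highest library, CTCF-dRBR replicate 2, and 0.217 to 0.580 CPM for the lowest, CTCF-WT replicate 1. An exact two-sided permutation test of the mean CPM gave p = 0.3, where 0.1 is the smallest that 3 against 3 libraries allow. BST1 was under 1 CPM in every library and was therefore not among the genes tested. Without that filter its log2 fold change was 0.43 (adjusted p = 0.54 by limma-voom), so a change of BST1 was not detectable at this depth. Per gene length it was 0.110, 0.240 and 0.280 TPM in CTCF-WT and 0.560, 0.770 and 0.220 TPM in CTCF-dRBR, below CD38 in every library.

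The window of 500 kb on either side of the CD38 start held the starts of 21 genes, CD38 included. Besides CD38, 6 were tested, and 14 were under 1 CPM in every library. All 6 had a log2 fold change above 0, where 6932 of the 14044 genes tested were above 0. Their median was 0.32, against −0.0076 for all genes tested. The GC content was 36.3% in FAM200B, 40.8% in TAPT1 and 40.9% in FBXL5. It was 46.7% in PROM1, 50.2% in TAPT1-AS1 and 53.2% in FGFBP2. Of all genes under 45% GC, 80.8% were above 0, with a median of 0.25. In 5 of the 6, all CTCF-dRBR libraries lay above all CTCF-WT libraries, which held for 20.0% of all genes. None passed FDR < 0.05 by limma-voom, and 2, both higher, had an unadjusted p under 0.05, which held in that direction for 12.6% of all genes. The nearest tested genes, FBXL5 and FAM200B, start next to each other at −96.6 kb on opposite strands and overlap by a few bases. FBXL5, a ubiquitin ligase subunit of iron homeostasis, was at 65.0, 69.2 and 72.6 CPM in CTCF-WT and 112, 92.3 and 79.2 CPM in CTCF-dRBR (log2 fold change 0.43, SE 0.14, adjusted p = 0.16 by limma-voom). FAM200B was at 19.5, 20.5 and 21.7 CPM against 46.9, 27.9 and 22.9 CPM, and its log2 fold change of 0.54 (SE 0.26) fell to 0.29 without CTCF-dRBR replicate 1. PROM1, which encodes the surface protein CD133 and starts at 306.1 kb, was at 780, 799 and 872 CPM in CTCF-WT and 1066, 1046 and 968 CPM in CTCF-dRBR (log2 fold change 0.33, SE 0.09, adjusted p = 0.14 by limma-voom). PROM1 overlaps FGFBP2 on the same strand, so reads of the shared part cannot be assigned with certainty. FGFBP2 itself, at 191.0 kb, was at 13.1, 13.5 and 12.98 CPM against 16.4, 13.8 and 14.8 CPM (log2 fold change 0.17). TAPT1 and TAPT1-AS1 overlap on opposite strands at 449.1 and 448.4 kb and had log2 fold changes of 0.30 and 0.19. After removal of the GC trend all 6 stayed above 0. FAM200B was then at 0.20, FBXL5 at 0.18, TAPT1 at 0.04, TAPT1-AS1 at 0.31 and FGFBP2 at 0.44. PROM1, at 0.28, was the only one of the 6 past the threshold in that setting (adjusted p = 0.047 by limma-voom), where 9.21% of all genes passed. When CTCF-dRBR replicate 1 was left out, FGFBP2 was at 0.11. No neighbor reached the size of the CD38 difference, whose own value chose the locus. Differences in size between neighbors and CD38 were not tested.

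**Figure D2:**
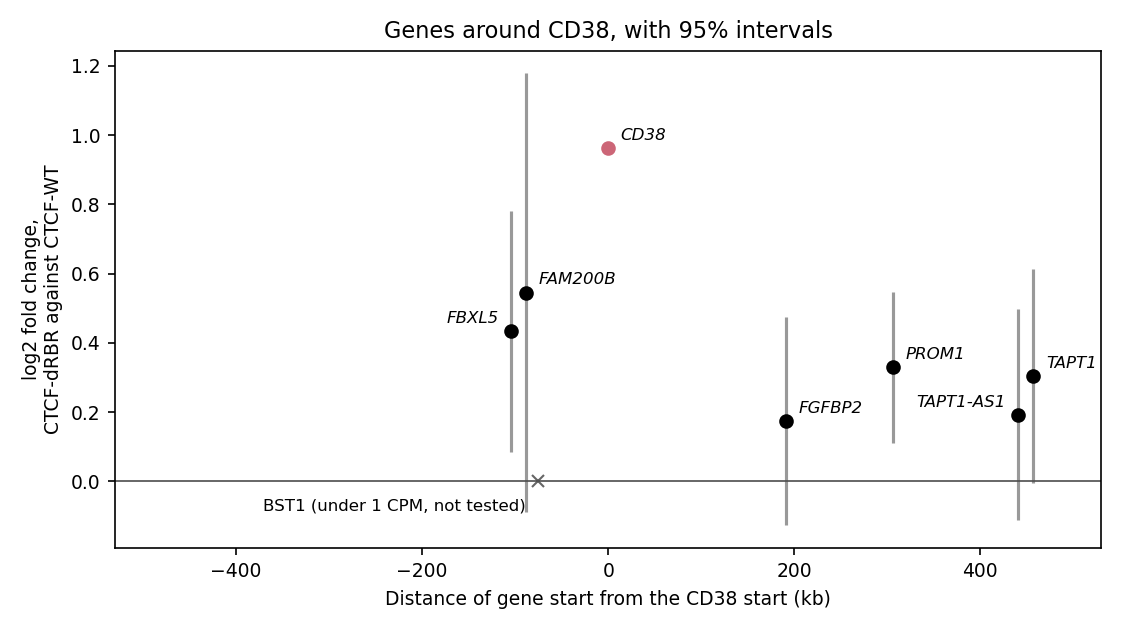
Log2 fold change of CTCF-dRBR against CTCF-WT for the tested genes within 500 kb of CD38, by the distance of their start from the CD38 start in kb, with 95% intervals from limma-voom (n = 3 per group). CD38 (red, 0.96) is drawn without an interval because this contrast chose it, the 6 neighbors lie between 0.17 and 0.54, genes with nearly the same start are drawn slightly apart, and the cross marks the position of BST1, which was not tested.

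The 5 genes whose profile over the 6 libraries was most like that of CD38 were DRAM1, SLC15A2, SLC23A1, SMAD9 and GNG2. Likeness was measured as the root mean square difference of log2 CPM centred on the mean of each gene, among 12088 candidates with a mean TPM of at least 1. It was 0.030 for DRAM1, 0.055 for SLC15A2, 0.076 for SLC23A1 and SMAD9, and 0.080 for GNG2, and the next gene followed at 0.092. DRAM1, a lysosomal membrane protein, was at 4.97, 4.93 and 5.06 CPM in CTCF-WT and 9.90, 9.67 and 9.01 CPM in CTCF-dRBR. GNG2, a G-protein gamma subunit, was at 28.7, 27.9 and 30.3 CPM against 53.7, 52.8 and 46.8 CPM. SMAD9, a transducer of BMP signals, was at 14.8, 15.3 and 15.1 CPM against 31.7, 27.9 and 25.6 CPM. SLC15A2, a peptide transporter, lay at 3.97 to 4.13 CPM in CTCF-WT and at 7.28 to 7.99 CPM in CTCF-dRBR, and SLC23A1, a vitamin C transporter, at 2.24 to 2.53 and at 4.46 to 4.61 CPM. Their log2 fold changes lay between 0.81 and 0.93. They were selected on the CD38 profile, so these values are a description. No gene of the NAD lists was among them. Their promoters differed in CpG content, from 0 in SLC15A2 to 50 in SMAD9.

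**Figure D3:**
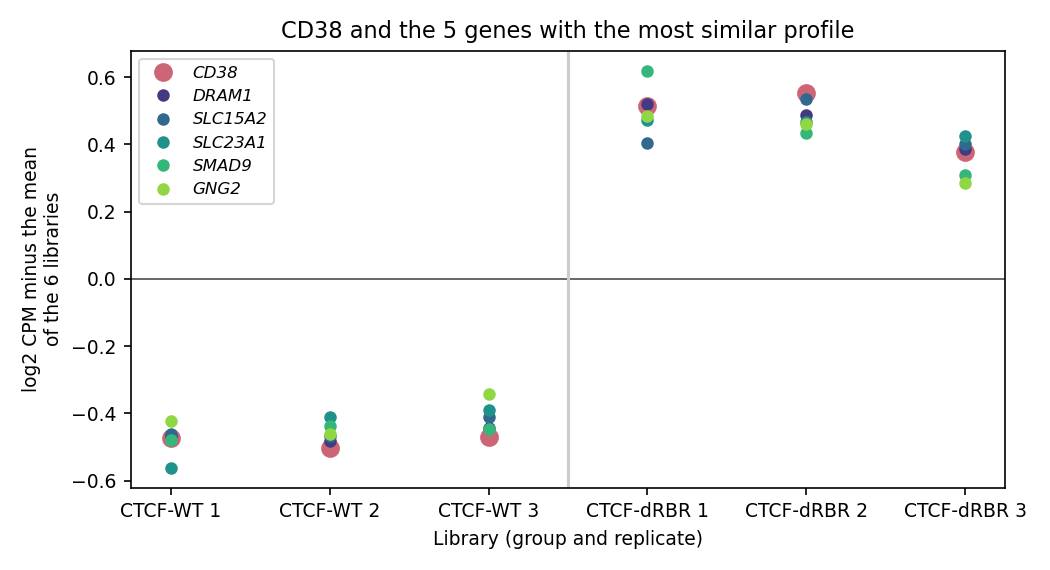
Log2 CPM of CD38 and the 5 genes with the most similar profile, each minus its own mean over the 6 libraries. In all 6 genes the CTCF-WT libraries lie below 0 and the CTCF-dRBR libraries above 0, with CD38 between −0.50 and −0.47 in CTCF-WT and between 0.38 and 0.55 in CTCF-dRBR.

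None of the 7 other members tested passed FDR < 0.05 by limma-voom (0% of all 14044 genes, with 3569 genes at an unadjusted p under 0.05). edgeR called 0 members and 0% of all genes, and DESeq2 called 0 members and 11.5% of all genes. Among the 7, 3 had a log2 fold change above 0, and the median was −0.14. The unadjusted p was under 0.05 for 1 member, PARP1, which was lower, where 12.8% of all genes were lower and 12.6% higher at that level. All CTCF-dRBR libraries lay above all CTCF-WT libraries for 2 members (NMNAT1 and SIRT1) and below them for 1 (PARP1), against 20.0% and 17.5% of all genes. With libraries weighted by quality (voomWithQualityWeights), NMNAT1, NAPRT1, NADK, SIRT1 and PARP1 passed the threshold. That setting called 68.2% of all genes. It weighted CTCF-dRBR replicate 1 by 0.0969, against 5.65 for CTCF-WT replicate 2 and 6.19 for CTCF-dRBR replicate 2. The weights of the remaining libraries lay between 0.472 and 1.26.

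In the nicotinamide route, NAMPT, its rate-limiting enzyme (chromosome 7), was at 53.1, 53.4 and 61.0 CPM in CTCF-WT and 80.7, 58.9 and 51.5 CPM in CTCF-dRBR. CTCF-dRBR replicate 1 was the highest library and replicate 3 the lowest, so the groups overlapped. The log2 fold change was 0.15 (SE 0.18, adjusted p = 0.57 by limma-voom). When CTCF-dRBR replicate 1 was left out, the value was −0.02, and after removal of the GC trend −0.19. NMNAT1, the nuclear enzyme that joins the mononucleotide to ATP to form NAD (chromosome 1), was at 17.1, 17.3 and 17.4 CPM against 17.9, 19.2 and 19.1 CPM. All CTCF-dRBR libraries lay above all CTCF-WT libraries, but the difference was small, with a log2 fold change of 0.12 (95% interval −0.14 to 0.39, adjusted p = 0.44 by limma-voom), or 0.08 after removal of the GC trend. NMNAT3, the mitochondrial form (chromosome 3), had counts of 1, 1 and 0 in CTCF-WT and 3, 0 and 1 in CTCF-dRBR. It was at or below the limit that a count of 0 allows, and it was not tested. NMNAT2, the remaining form, was also under 1 CPM in every library.

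In the nicotinic acid route, NAPRT1, which makes the mononucleotide of nicotinic acid, was at 29.7, 30.2 and 19.9 CPM in CTCF-WT and 3.81, 14.0 and 24.96 CPM in CTCF-dRBR. The CTCF-dRBR libraries spread over a wider range than the distance between the group means, and replicate 3 lay inside the range of CTCF-WT. The log2 fold change of −1.17 (SE 0.60, 95% interval −2.61 to 0.28, adjusted p = 0.24 by limma-voom) was the most negative among the members tested, and its GC content of 67.3% was the highest. When CTCF-dRBR replicate 1 was left out, the value was −0.48, after removal of the GC trend −0.20, and with both −0.07. NADSYN1, the synthetase that ends this route (chromosome 11), was at 54.3, 53.1 and 47.9 CPM against 37.6, 48.3 and 53.8 CPM. The groups overlapped, and the log2 fold change was −0.14 (SE 0.15, adjusted p = 0.50 by limma-voom), or 0.15 after removal of the GC trend and −0.02 when CTCF-dRBR replicate 1 was left out. QPRT, which joins the tryptophan route to NAD, was at 86.9, 81.0 and 63.2 CPM against 59.4, 85.3 and 99.8 CPM, with a log2 fold change of 0.08 (adjusted p = 0.80 by limma-voom). After removal of the GC trend QPRT was higher in CTCF-dRBR (0.49, adjusted p = 0.027 by limma-voom), where 9.21% of all genes passed, and it was at 0.27 when CTCF-dRBR replicate 1 was left out. Of 13 synthesis genes found, 7 were tested, and the 6 others, KYNU, HAAO, TDO2, NMRK2, NMNAT2 and NMNAT3, were under 1 CPM in every library. Of the 7, 5 had a log2 fold change above 0 (median 0.12). IDO1, IDO2 and AFMID were not analysed here.

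NADK, the cytosolic kinase that makes NADP from NAD (chromosome 1), was at 64.3, 62.5 and 57.9 CPM in CTCF-WT and 33.2, 55.6 and 62.1 CPM in CTCF-dRBR. CTCF-dRBR replicate 1 was far below the others, and replicate 3 lay within the range of CTCF-WT. The log2 fold change was −0.30 (SE 0.22, adjusted p = 0.37 by limma-voom). It became 0.29 once the GC trend was removed and −0.07 when CTCF-dRBR replicate 1 was left out. Of the 10 genes tested in the list of NAD kinases, nicotinamide handling and transport, 7 had a log2 fold change above 0 (median 0.08). At an unadjusted p under 0.05, 3 were higher and 0 lower, against 12.6% and 12.8% of all genes. NNMT and AOX1, which also act on nicotinamide, were under 1 CPM in every library. NNT, the mitochondrial transhydrogenase, was at 170, 173 and 184 CPM against 173, 191 and 180 CPM (log2 fold change 0.05, adjusted p = 0.71 by limma-voom). The value for NNT was −0.26 after removal of the GC trend and 0.08 when CTCF-dRBR replicate 1 was left out. NADK2, the mitochondrial NAD kinase, was at 79.2, 86.1 and 84.9 CPM against 98.1, 94.0 and 90.6 CPM (0.17, adjusted p = 0.24 by limma-voom), a difference of −0.07 after removal of the GC trend. PNP, a phosphorylase that also splits nicotinamide riboside, was at 111, 105 and 103 CPM against 74.3, 95.6 and 99.2 CPM (−0.25, adjusted p = 0.25 by limma-voom), and at −0.13 in log2 fold change when CTCF-dRBR replicate 1 was left out. NT5E, the ectonucleotidase CD73, is named after its values were seen. Its level was 13.3, 13.03 and 15.0 CPM in CTCF-WT and 29.7, 23.0 and 21.8 CPM in CTCF-dRBR, without overlap. Its log2 fold change of 0.82 (SE 0.16) missed the threshold (adjusted p = 0.11 by limma-voom). It passed without CTCF-dRBR replicate 1 (0.70, adjusted p = 0.043 by limma-voom), where 3.90% of all genes passed. After removal of the GC trend it also passed (0.68, adjusted p = 0.020 by limma-voom), where 9.21% of all genes passed.

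SIRT1, the nuclear deacetylase (chromosome 10), was at 51.1, 45.7 and 50.8 CPM in CTCF-WT and 62.1, 62.2 and 52.5 CPM in CTCF-dRBR. The groups did not overlap, although CTCF-dRBR replicate 3 lay close to the highest CTCF-WT library. The log2 fold change was 0.25 (SE 0.11, 95% interval −0.02 to 0.53, adjusted p = 0.21 by limma-voom), and it was 0.03 after removal of the GC trend. Of the 7 sirtuins, all tested, 3 had a log2 fold change above 0 (median −0.14). SIRT7, a nucleolar member, was at 45.3, 43.8 and 33.4 CPM against 12.1, 24.2 and 31.1 CPM, all CTCF-dRBR libraries being lower. Its log2 fold change was −0.89 (SE 0.32, adjusted p = 0.18 by limma-voom), or −0.35 after removal of the GC trend and −0.56 when CTCF-dRBR replicate 1 was left out. SIRT5, a mitochondrial desuccinylase, was at 19.7, 20.8 and 22.6 CPM against 23.9, 19.7 and 21.5 CPM (0.03, adjusted p = 0.87 by limma-voom), with −0.09 after removal of the GC trend and −0.03 when CTCF-dRBR replicate 1 was left out. SIRT6, named after its values were seen, had the most negative log2 fold change of the 52 NAD genes other than CD38 (−1.45, SE 0.64, adjusted p = 0.21 by limma-voom) at a GC content of 63.6%. Its value was −0.76 when CTCF-dRBR replicate 1 was left out, −0.64 after removal of the GC trend and −0.39 with both.

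PARP1, the main poly-ADP-ribose polymerase of the DNA damage response (chromosome 1), was the most highly expressed member. Its level was 604, 583 and 611 CPM in CTCF-WT and 522, 511 and 538 CPM in CTCF-dRBR. The groups did not overlap, with every CTCF-dRBR library lower. The means were 599.6 ± 14.7 and 523.7 ± 14.0 CPM (SD, n = 3), and the log2 fold change was −0.20 (SE 0.08, adjusted p = 0.19 by limma-voom). It was −0.20 without CTCF-dRBR replicate 1 and −0.18 after removal of the GC trend, so it moved little with either, while on log2(TPM + 1) it was 0.28 against a median of 0.40 over all genes. A fit with the trend removed and that library left out was added after the data were seen. PARP1 passed the threshold there (−0.20, adjusted p = 0.036 by limma-voom), where 3139 of 13360 genes passed. All 17 genes of the PARP family were tested, and 11 had a log2 fold change above 0 (median 0.08). At an unadjusted p under 0.05, 6 were higher, against 12.6% of all genes, and 1 was lower. PARP14, a mono-ADP-ribosyltransferase of interferon and cytokine signaling, was at 132, 138 and 143 CPM against 255, 202 and 190.1 CPM, without overlap. Its log2 fold change of 0.63 (SE 0.13) missed the threshold (adjusted p = 0.11 by limma-voom). PARP14 passed without CTCF-dRBR replicate 1 (0.50, adjusted p = 0.043 by limma-voom), where 3.90% of all genes passed. After removal of the GC trend it also passed (0.41, adjusted p = 0.020 by limma-voom), where 9.21% of all genes passed. PARP4, the vault-associated member, was at 186, 191 and 203 CPM against 207, 191 and 177 CPM (−0.01, adjusted p = 0.92 by limma-voom), with −0.16 after removal of the GC trend and −0.07 when CTCF-dRBR replicate 1 was left out. PARP9 and PARP15 lie beside PARP14 on chromosome 3 and, with PARP8 and TIPARP, are named after their values were seen. The log2 fold changes of these genes were 0.52, 0.51, 0.71 and 0.42 in that order, with adjusted p between 0.12 and 0.16 by limma-voom. After removal of the GC trend they were 0.33, 0.27, 0.41 and 0.29.

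SARM1, the intracellular NAD glycohydrolase of axon degeneration, was the only gene tested of its list besides CD38. It lay at 2.23 to 2.44 CPM in CTCF-WT and at 1.20 to 2.72 CPM in CTCF-dRBR (log2 fold change −0.26, adjusted p = 0.53 by limma-voom). After removal of the GC trend SARM1 was at 0.11, and when CTCF-dRBR replicate 1 was left out it was at −0.02. The ecto-ADP-ribosyltransferases ART1, ART3, ART4 and ART5 were under 1 CPM in every library. Among the 5 ADP-ribose hydrolases tested, 3 had a log2 fold change above 0 (median 0.02). The log2 fold changes of the most abundant of them were 0.02 for OARD1, −0.46 for MACROD1 and −0.73 for ADPRHL2, all with adjusted p of 0.22 or more by limma-voom. After removal of the GC trend they were −0.13, 0.42 and −0.15 in the same order, so OARD1 and MACROD1 changed direction. When CTCF-dRBR replicate 1 was left out, OARD1 was at −0.14, MACROD1 at −0.39 and ADPRHL2 at −0.26. Of the genes that bind or respond to the products of CD38, 5 were tested. All 5 had a log2 fold change below 0 (median −0.45), where 6932 of the 14044 genes tested were above 0. TPCN1, named after its values were seen, was at −0.45. It moved to 0.03 after removal of the GC trend and to −0.06 when CTCF-dRBR replicate 1 was left out. TPCN2, also named after its values were seen, was at −0.75 and stayed below 0 in both settings. Its value was −0.35 after removal of the GC trend and −0.39 when that library was left out. The GC contents of TRPM2, TPCN1 and TPCN2 were 62.2%, 56.7% and 55.7%, and 90.9% of all genes at 55% or more were below 0. HN1L and LSM12, which bind the messenger NAADP, had log2 fold changes of −0.26 (SE 0.08) and −0.17 (SE 0.15). After removal of the GC trend HN1L was at −0.15, and when CTCF-dRBR replicate 1 was left out LSM12 was at −0.31. HN1L was at 176, 174 and 182 CPM in CTCF-WT and 145, 149 and 149 CPM in CTCF-dRBR, without overlap (adjusted p = 0.15 by limma-voom). TRPM2, a cation channel opened by ADP-ribose, was at 27.7, 26.2 and 20.3 CPM against 6.99, 14.8 and 19.3 CPM, with a log2 fold change of −0.91 (SE 0.35), or −0.16 after removal of the GC trend and −0.54 when CTCF-dRBR replicate 1 was left out. The ryanodine receptors RYR1, RYR2 and RYR3, the calcium channels linked to cyclic ADP-ribose, were under 1 CPM in every library. PECAM1, a ligand of CD38, was not analysed here.

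Over all 7 lists, 69 genes besides CD38 were found, 52 were tested and 29 of these had a log2 fold change above 0 (median 0.04, against −0.0076 for all genes). By limma-voom 0 passed FDR < 0.05, and 9 were higher and 4 lower at an unadjusted p under 0.05, against 12.6% and 12.8% of all genes. The groups did not overlap for 16 that were higher and 7 that were lower, against 20.0% and 17.5% of all genes. DESeq2 called 6 of the 52, NT5E, PARP8, PARP14, PARP15 and TIPARP as higher and HN1L as lower, where it called 11.5% of all genes. The GC content of the exons moved with these values. Across the 53 NAD genes with CD38, Spearman's rho between GC content and the difference of CTCF-dRBR replicate 1 from the mean of the other 5 libraries was −0.84, and it was −0.81 for the log2 fold change. Over all 13654 genes with a GC value these were −0.78 and −0.68. The genes share their libraries and are not independent, so these are descriptions. Of 15 NAD genes at 55% GC or more, 14 had a log2 fold change below 0 (93.3%, against 90.9% of all such genes). Of 26 under 45%, CD38 included, 25 were above 0 (96.2%, against 80.8%). At 42.6%, CD38 lay in the low group. The median log2 fold change of that group over the NAD genes, CD38 included, was 0.28. The part of the GC trend in the differences of single genes was not tested beyond its removal.

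**Figure D4:**
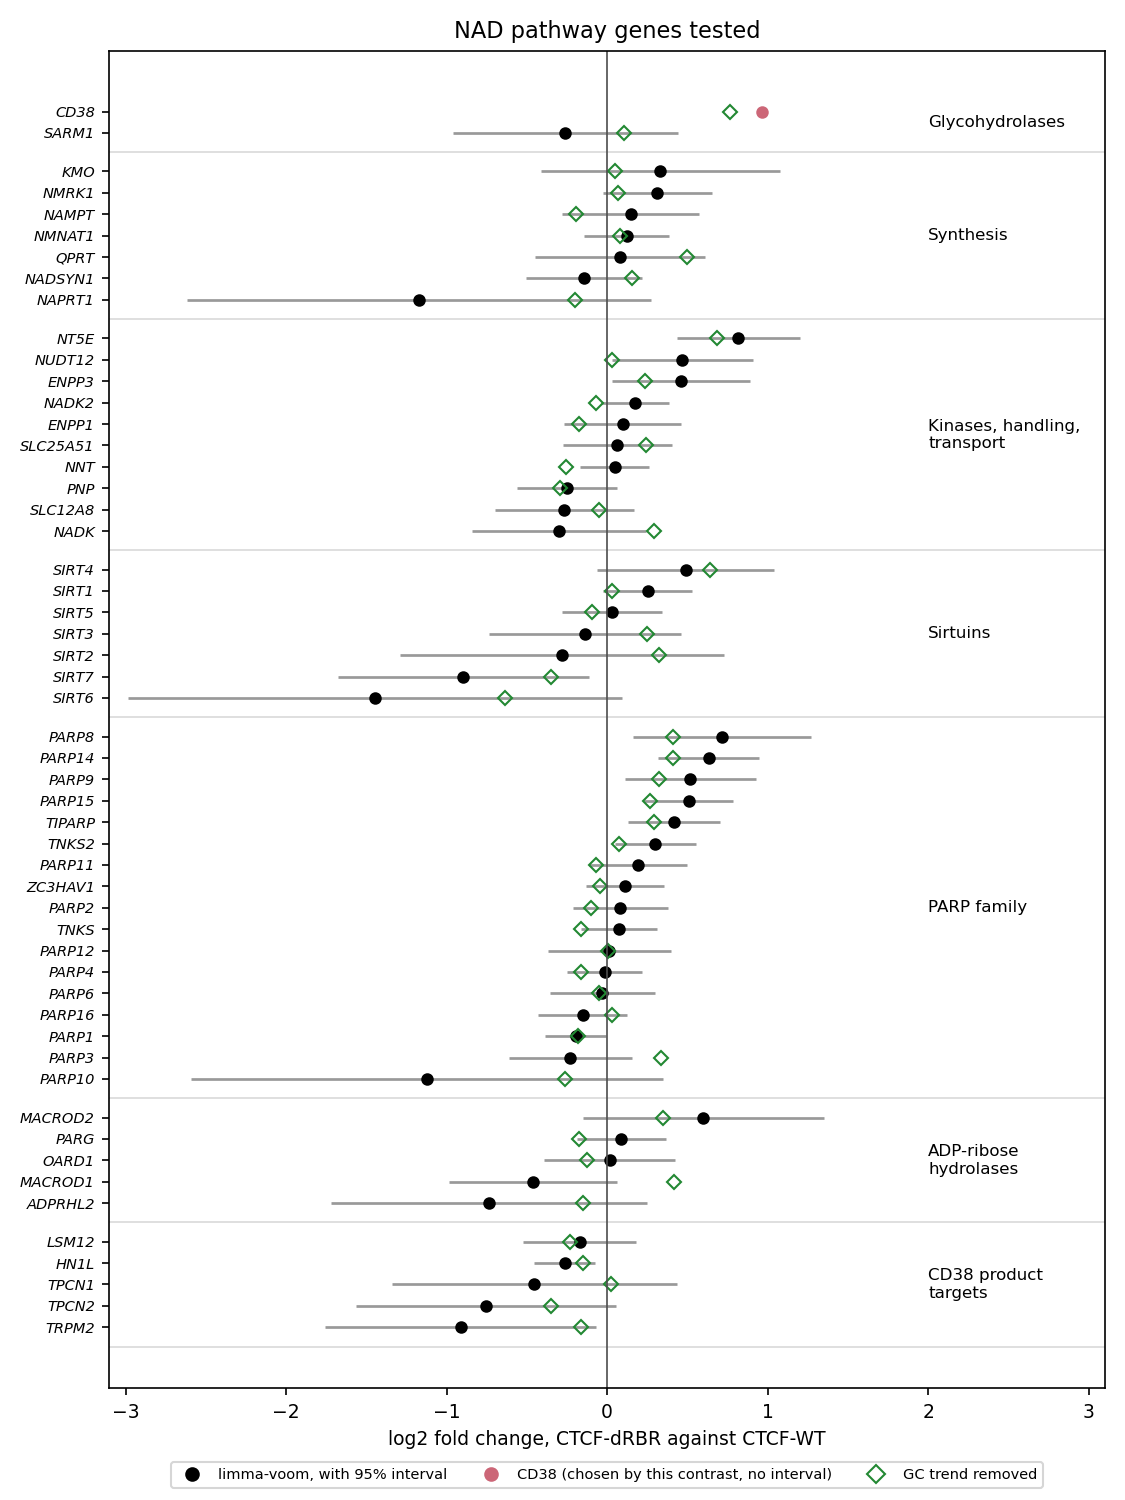
Log2 fold change of CTCF-dRBR against CTCF-WT (horizontal axis) for the 53 NAD pathway genes tested, grouped by list, with circles and 95% intervals from limma-voom (n = 3 per group) and diamonds after removal of the GC trend. CD38 (red) is shown without an interval, NT5E and PARP14 lie above 0 under both analyses, and the wide intervals of NAPRT1 and SIRT6 include 0.

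**Figure D5:**
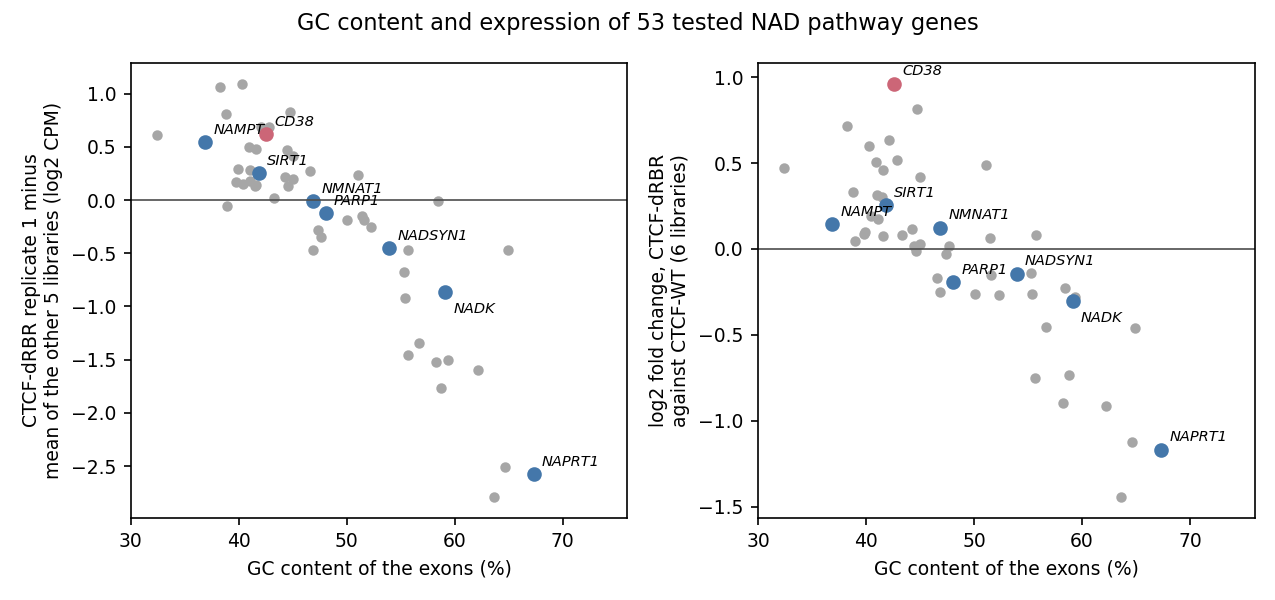
GC content of the exons (%) against the difference of CTCF-dRBR replicate 1 from the mean of the other 5 libraries in log2 CPM (left) and against the log2 fold change over all 6 libraries (right), for the 53 NAD pathway genes tested, with CD38 in red and the other members in blue. Both differences decrease with GC content (rho −0.84 and −0.81), NAPRT1 is the lowest member in both panels and CD38 is the highest member in both.

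Ranked by TPM within each library, which compares genes per length, PARP1 was the highest of the 10 members in all 6 libraries, at 95.2, 112 and 164 TPM in CTCF-WT and 142, 168 and 131 TPM in CTCF-dRBR. BST1 was 9th and NMNAT3 10th in all 6. The ranks between these changed from library to library, so neighbors in that order were not separated beyond their spread. CD38 was 8th in the 3 CTCF-WT libraries and 7th, 7th and 8th in CTCF-dRBR, exchanging places with NMNAT1 in replicate 2 and passing NAPRT1 in replicate 1. NAPRT1 ranged from 2nd in CTCF-WT replicates 1 and 2 to 8th in CTCF-dRBR replicate 1, the widest range of any member.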

How the data were processed

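Total RNA of SEM cells was sequenced after depletion of ribosomal RNA, in 3 CTCF-WT and 3 CTCF-dRBR libraries. The labels describe single-end reads and the methods paired-end reads. According to the methods and the submitters' processing notes, the authors trimmed the reads with Trim Galore (version 0.6.3), aligned them to GRCh37 with STAR (2.7.9a) and quantified Gencode genes with RSEM (1.3.1). The deposited expected counts are RSEM's estimated counts per gene, not normalized. The deposited TPM were scaled by the authors to gene length and to a fixed total over all genes, small RNAs included.

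A gene was kept where at least 1 library reached 1 CPM, which left 14044 genes. Counts were normalized by TMM in edgeR (4.0.16) and compared by limma-voom (limma 3.58.1, R 4.3.3) without covariates, as in the study's methods, with two-sided tests, Benjamini-Hochberg adjustment across the genes kept and a threshold of 0.05. Printed CPM are TMM-normalized. Counts were rounded for edgeR's quasi-likelihood test and DESeq2 (1.42.0). The GC trend was removed by subtracting, per library, a loess fit (span 0.5, degree 2) of the deviation of log2 CPM (prior count 1) over the GC content of the exons, known for 97.2% of the genes tested. Positions and GC content came from Gencode on GRCh37. TPM tests used limma-trend with a pseudocount of 1 or 0.1. The fits were tested on simulated counts with changes larger than those described here. These runs do not show how well differences of the present size are found.

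The members and gene lists were chosen with earlier results of these data known. The genes named were the members, the 3 genes of highest mean TPM in each NAD list among those tested and any past the threshold, the 5 genes most like CD38, and the genes within 500 kb. Genes outside this rule are said to be named after their values were seen. Libraries of a group differed by more than sampling noise (median chi-square per gene between 2.65 and 41.3, against 0.455 under sampling alone). How the counting used strand is not given in the sources used here.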

Additional observations from a re-analysis of the deposited data

How the results depend on the processing

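CD38 was higher in CTCF-dRBR under all 19 alternatives, which reuse the libraries that chose it and so add no independent support. Its log2 fold change of 0.96 became 1.04 with voomWithQualityWeights and 1.04 with library size only, 0.88 without the filter on low counts, 1.04 on log2(TPM + 1), 1.28 on log2(TPM + 0.1), 0.76 with the GC trend removed, and between 0.92 and 1.02 when each library was left out. The number of genes past FDR < 0.05 was 0 by limma-voom, and it was 1619 by DESeq2, 9583 with voomWithQualityWeights, 833 on log2(TPM + 1), 760 on log2(TPM + 0.1) and 1258 with the GC trend removed. It was between 0 and 535 when each library was left out, with 535 without CTCF-dRBR replicate 1. The NAD genes other than CD38 that passed numbered 0 by limma-voom, 6 by DESeq2, 33 with voomWithQualityWeights, 3 on each TPM scale, 3 with the GC trend removed and between 0 and 2 when each library was left out, with 2 without CTCF-dRBR replicate 1. Of the members other than CD38, 5 passed with voomWithQualityWeights. Both added alternatives were chosen after seeing the data. With the GC trend removed and CTCF-dRBR replicate 1 left out, 3139 of 13360 genes passed, and CD38 was 0.84. The genes that passed included 12 NAD genes other than CD38, 2 of them members (NAMPT and PARP1). With TPM rescaled over protein-coding genes 0 genes passed, and CD38 was 0.76.

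Some log2 fold changes changed sign. NAMPT (0.15) became −0.19 with the GC trend removed, −0.022 without CTCF-dRBR replicate 1 and −0.21 with both. NADSYN1 (−0.14) became 0.45 on log2(TPM + 1), 0.46 on log2(TPM + 0.1), 0.15 with the GC trend removed, 0.11 with that library left out as well, and 0.0015 on the rescaled TPM. NADK (−0.30) became 0.028 on both TPM scales, 0.29 with the GC trend removed and 0.22 with that library left out as well. PARP1 (−0.20) became 0.28 on both TPM scales. The TPM scales moved the median log2 fold change of all genes to 0.40 and 0.54, and these values of NADK and PARP1 lie below those medians. NMNAT1, NAPRT1 and SIRT1 kept their sign under all 19 alternatives. The causes were not tested.

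The sources used here do not say whether the replicate numbers of the titles pair the libraries. Correlations of deviations between same-numbered libraries were −0.34, 0.10 and −0.47. They cannot decide this, since the deviations of the libraries also moved with GC content. With the replicate number as a block, 0 genes, 0 NAD genes and 0 members passed, 1423 genes had an unadjusted p under 0.05 against 3569 without the block, and CD38 was 0.96. BST1 and NMNAT3 were too rare for these fits except without the filter, and a change of either was not detectable at this depth.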
